A study of Mus musculus with 6 samples.

Results

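The genes described here are 10 transcripts used to recognise dendritic cells or their activation, read in RNA from mouse cells labelled as neutrophils of Hepa1-6 tumours, a transplantable mouse hepatoma model. They were found by gene symbol among the 21959 genes of the table, and all 10 were matched. The libraries fall into 3 labelled GPR35-positive and 3 labelled GPR35-negative, where GPR35 is a G protein-coupled receptor. All 6 libraries share the tumour model and the labelled cell type. Mouse strain, sex, age, the way cells were divided by GPR35, and whether replicates came from separate animals are not given in the sources used here, so each p-value reflects no more than the variation among these libraries, which may be technical. The values are FPKM, fragment counts divided by transcript length and sequencing depth. They are relative to each library's total, so a comparison between libraries depends on what else each library holds. Median-of-ratios scaling was run as an alternative for that reason.

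Conventional dendritic cells arise from bone marrow progenitors under the growth factor FLT3L and present antigen to T cells. The subset called cDC1 depends on the transcription factor BATF3, carries the chemokine receptor XCR1 and the integrin CD103, and takes up antigen from dying cells. When a dendritic cell matures it raises costimulatory molecules and CD83, reorganises actin with fascin and migrates to lymph nodes. CD83 is an activation marker rather than a lineage marker, since B cells, macrophages and neutrophils can also make it. The lineage genes number 6 (Flt3, Zbtb46, Batf3, Xcr1, Itgae and Cd209a), 3 are taken here as activation genes (Cd83, Fscn1 and Relt), and Bst1 is a gene of several leukocytes and stroma.

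The libraries held 16329517 to 18314104 reads assigned to genes in the GPR35-positive group and 15742743 to 17244561 in the GPR35-negative group, recovered from the smallest FPKM differences between genes. At that depth 3 reads, the limit that a count of 0 allows, are worth 0.0265 to 0.0309 FPKM on the long transcript of Flt3 and 0.103 to 0.119 FPKM on the short one of Batf3. Gpr35 itself averaged 20.2 ± 1.89 FPKM in GPR35-positive and 1.57 ± 0.398 FPKM in GPR35-negative libraries (SD, n = 3 each). The labelled cell type was not the only one in evidence: 16 hepatocyte and hepatoma markers summed to 16991 to 17416 FPKM in GPR35-positive and 25452 to 26869 FPKM in GPR35-negative libraries. In the same order, 18 mature neutrophil markers summed to 9877 to 10816 and to 903 to 1155 FPKM, and 18 macrophage and monocyte markers to 1515 to 1557 and to 72.2 to 99.1 FPKM. Their part in the results on dendritic cell genes was not tested. In such bulk libraries, fewer cells of a type and less RNA per cell cannot be told apart.

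In GPR35-positive libraries Cd83 stood far above the other 9 genes, and Batf3 was the only lineage gene above 1 FPKM in every GPR35-positive library. Over all 10 genes, none left out, the values of all 3 GPR35-positive libraries lay above all 3 GPR35-negative ones for 7, and the groups overlapped for Fscn1, Zbtb46 and Flt3. Among the 19818 genes above 0 in any library, 21.3% had groups apart in that direction and 27.4% in the other. With limma-trend and no filter, 7 of the 10 were higher in the GPR35-positive libraries, against 17.4% of all 19818 genes, and 0 were lower. Among all genes 22.1% were lower. None of the 10 was lower at an unadjusted p under 0.05 or with limma-voom on recovered reads, which called 6 of 8 higher, beside 24.9% higher and 39.2% lower among its 12578 genes. Batf3, Cd209a and Itgae would not have reached its minimum of 10 reads in 3 libraries from the GPR35-negative group alone. That count was therefore not read as a result about the genes either. Only Cd83, Relt, Bst1 and Batf3 passed the filter of 1 FPKM in 3 libraries. Batf3 passed it through its GPR35-positive libraries alone, so the count of 4 higher among those 4, beside 23.3% higher and 45.5% lower among the 10060 genes tested, was not read as a result about the genes.

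**Figure D1:**
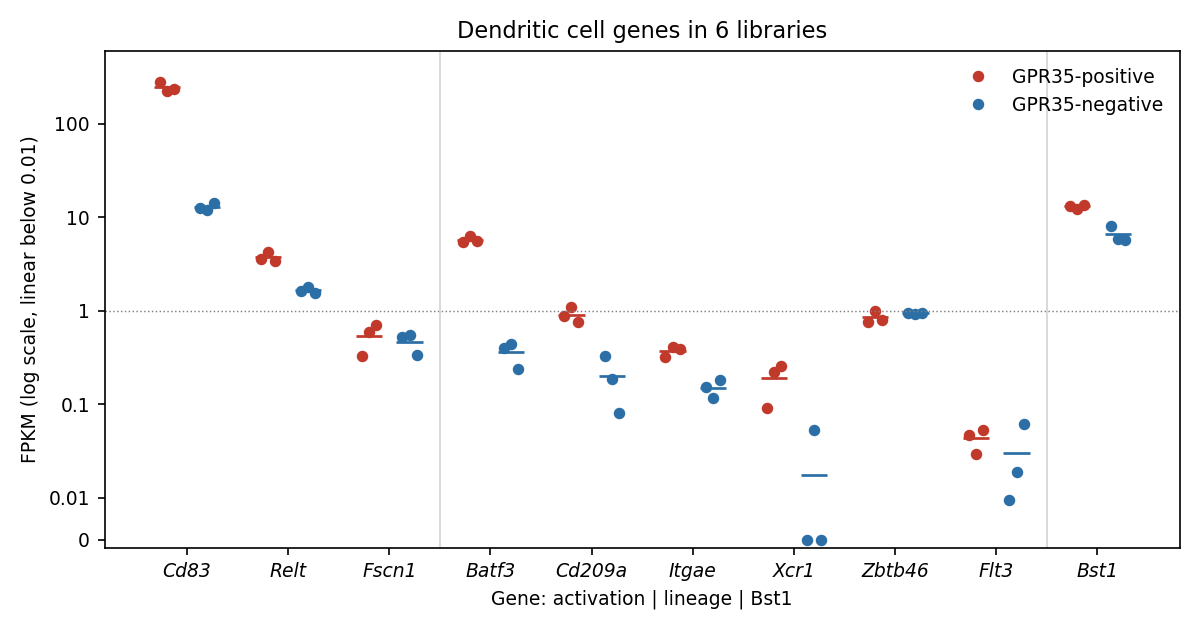
FPKM of each of the 10 genes by library on a log axis that is linear below 0.01; points are libraries, short lines are group means, and the dotted line marks 1 FPKM. Cd83 lies between 225 and 279 FPKM in GPR35-positive libraries, while Fscn1, Zbtb46 and Flt3 show overlapping groups.

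Cd83, an immunoglobulin-family surface protein that stabilises MHC class II and CD86 on activated antigen-presenting cells, spans bases 43784775 to 43803132 of chromosome 13 (forward strand, GRCm38). It was at 279, 225 and 235 FPKM in the GPR35-positive libraries, against 12.4, 12.1 and 14.0 FPKM in GPR35-negative libraries. The groups did not overlap, and the lowest GPR35-positive library was many times the highest GPR35-negative one. The means were 246 ± 28.5 and 12.8 ± 1.04 FPKM (SD, n = 3 each), a ratio of 19.2. On the scale of log2(FPKM + 1) the change was 4.16 (SE 0.09, 95% interval 3.95 to 4.36, limma-trend adjusted p = 4.45e-10). That change ranked 12 among the 10060 genes tested, whose median was −0.19. By level, Cd83 ranked 197 of the 21959 genes in the GPR35-positive mean and 3541 in the GPR35-negative mean. The values rested on 12276, 9448 and 11078 reads in GPR35-positive and 551, 526 and 568 reads in GPR35-negative libraries, so counting error was small.

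The level of Cd83 was also set against the summed markers of the myeloid cells in the same libraries. It equalled 18.0%, 14.8% and 15.1% of the macrophage and monocyte sum in GPR35-positive libraries and 12.5%, 14.0% and 19.4% in GPR35-negative libraries. On this gauge the groups overlapped. Against the mature neutrophil sum it came to 2.66%, 2.28% and 2.17% in GPR35-positive libraries and 1.08%, 1.15% and 1.55% in GPR35-negative libraries, where the groups did not overlap. These shares are descriptions without a test. Among the genes tested, the 5 whose centred log2(FPKM + 1) values over the 6 libraries lay nearest to those of Cd83 were Clec4n, Dnase1l3, Ccl8, Ear2 and Ccl12, at Euclidean distances of 0.26 to 0.46. Clec4n, which encodes the fungal pattern receptor dectin-2, averaged 593 ± 95.8 FPKM in GPR35-positive and 35.0 ± 1.78 FPKM in GPR35-negative libraries. Dnase1l3, which encodes a secreted DNase, averaged 41.1 ± 5.66 and 1.62 ± 0.35 FPKM in the same order (SD, n = 3 each).

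Relt, a member of the TNF receptor superfamily expressed in lymphoid tissue, spans bases 100845847 to 100863446 of chromosome 7 (reverse strand). It was at 3.58, 4.22 and 3.41 FPKM in the GPR35-positive libraries, against 1.61, 1.80 and 1.55 FPKM in GPR35-negative libraries. The groups did not overlap. It rose 2.26-fold, with a log2 fold change of 0.83 (SE 0.09, limma-trend adjusted p = 2.72e-05).

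Fscn1 encodes fascin, the actin-bundling protein of mature dendritic cell protrusions, which many tumour and mesenchymal cells also make. The gene spans bases 142960343 to 142973185 of chromosome 5 (forward strand). It was at 0.329, 0.59 and 0.707 FPKM in GPR35-positive libraries and 0.52, 0.549 and 0.337 FPKM in GPR35-negative libraries, on 17, 29 and 39 reads against 27, 28 and 16. The groups overlapped, and both the lowest and the highest value were in GPR35-positive libraries. Without a filter the log2 fold change was 0.07, with a 95% interval of −0.18 to 0.31 (limma-trend adjusted p = 0.658). With limma-voom on recovered reads it was 0.16, with an interval of −0.59 to 0.91 (adjusted p = 0.694). These 3 activation genes thus did not move as a block: 1 was 19.2-fold higher, 1 was 2.26-fold higher, and for Fscn1 no difference was detectable at this depth.

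Batf3, the AP-1 family factor on which cDC1 development depends, spans bases 191097847 to 191108945 of chromosome 1 (forward strand). It was at 5.45, 6.25 and 5.50 FPKM in the GPR35-positive libraries, against 0.399, 0.443 and 0.239 FPKM in GPR35-negative libraries. Every GPR35-positive library was more than an order of magnitude above every GPR35-negative one. The means were 5.73 ± 0.449 and 0.361 ± 0.108 FPKM (SD, n = 3 each), a ratio of 15.9. On the log2(FPKM + 1) scale the change was 2.31 (SE 0.10, limma-trend without a filter, adjusted p = 3.12e-06). The filtered test, which Batf3 entered through its GPR35-positive libraries alone, gave a limma-trend adjusted p of 7.49e-09 (SE 0.09). With limma-voom on recovered reads, which adds no FPKM offset, the change was 3.95 (SE 0.32, adjusted p = 2.34e-07). The reads were 149, 163 and 161 in GPR35-positive and 11, 12 and 6 in GPR35-negative libraries. The ratio of summed reads per library total was 15.7, with an exact 95% interval of 10.8 to 23.7 that covers counting error only, beside 19.2 (18.3 to 20.2) for Cd83.

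Cd209a encodes a mouse relative of the C-type lectin DC-SIGN, found on monocyte-derived and some cDC2 dendritic cells, and spans bases 3743397 to 3748984 of chromosome 8 (reverse strand). It was at 0.885, 1.08 and 0.759 FPKM in the GPR35-positive libraries, against 0.33, 0.186 and 0.0803 FPKM in GPR35-negative libraries. On reads this was 24, 28 and 22 against 9, 5 and 2, so the groups did not overlap but the lower one stood near the counting limit. The ratio of summed reads was 4.46 (2.57 to 8.21), and Cd209a was called higher without a filter (limma-trend adjusted p = 0.00133) and by limma-voom (log2 fold change 2.23, adjusted p = 0.00115). It belongs to a family of similar genes on the same chromosome whose reads the authors' counting could have split, and its listed relatives Cd209b, Cd209c, Cd209d and Cd209e averaged 0.142 FPKM or less in either group.

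Itgae encodes CD103, the integrin chain that marks cDC1 and many tissue T cells, and spans bases 73090583 to 73147446 of chromosome 11 (forward strand). It was at 0.319, 0.414 and 0.393 FPKM in the GPR35-positive libraries, against 0.152, 0.116 and 0.18 FPKM in GPR35-negative libraries. The reads were 25, 31 and 33 against 12, 9 and 13, again without overlap. The ratio of summed reads was 2.52 (1.68 to 3.87), and Itgae was called higher without a filter (limma-trend adjusted p = 0.00225) and by limma-voom (log2 fold change 1.31, adjusted p = 0.00389). Its partner chain Itgb7 rose, at 5.62 ± 1.15 FPKM in GPR35-positive and 3.67 ± 0.447 FPKM in GPR35-negative libraries (SD, n = 3 each, limma-trend adjusted p = 0.00583). Cdh1, which encodes their ligand E-cadherin, was at 0.0622 ± 0.0293 and 0.0354 ± 0.0308 FPKM in the same order.

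Xcr1, the chemokine receptor gene that in mouse is close to exclusive to cDC1, spans bases 123852315 to 123862029 of chromosome 9 (reverse strand). It had 7, 16 and 21 reads in GPR35-positive libraries and 0, 4 and 0 reads in GPR35-negative libraries. In FPKM this was 0.0918, 0.22 and 0.258 against 0, 0.053 and 0, where a count of 0, taken as up to 3 reads, allows 0.0391 and 0.0428 FPKM. The exact two-sided 95% Poisson limit plotted for a count of 0 is slightly higher, at 3.69 reads. The groups did not overlap, and the ratio of summed reads, 44 against 4, was 10.6 (3.86 to 40.7). Without a filter Xcr1 was called higher (log2 fold change 0.22, limma-trend adjusted p = 0.0144), while it had too few reads for limma-voom. The call ended without GPR35-positive replicate 2 or 3 (adjusted p = 0.0886 and 0.0708) and without GPR35-negative replicate 1 or 3 (0.0813 and 0.0625). Xcl1, the gene of its chemokine ligand, was at 2.49 ± 1.03 FPKM in GPR35-positive and 2.13 ± 0.7 FPKM in GPR35-negative libraries (SD, n = 3 each, limma-trend adjusted p = 0.574).

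**Figure D2:**
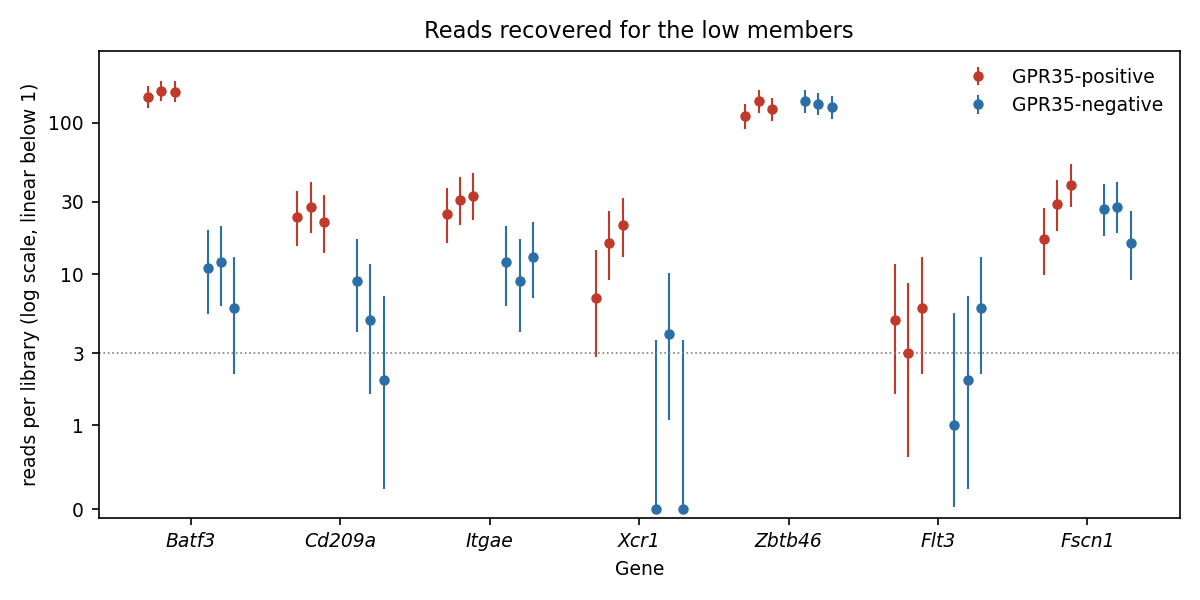
Reads recovered from FPKM for the 6 lineage genes and Fscn1 in each library, on a log axis that is linear below 1; points are libraries, bars are exact 95% Poisson intervals, and the dotted line marks 3 reads. Batf3 separates the groups widely, with 149 to 163 reads against 6 to 12, while Zbtb46 has more than 100 reads in every library and overlapping groups.

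Zbtb46 encodes a zinc finger factor restricted among immune cells largely to conventional dendritic cells and their committed precursors, and also made by endothelium. It spans bases 181387762 to 181459426 of chromosome 2 (reverse strand). It was at 0.762, 1.0 and 0.789 FPKM in GPR35-positive libraries and 0.947, 0.93 and 0.948 FPKM in GPR35-negative libraries. The groups overlapped, and here the GPR35-positive mean was the lower. The reads were not scarce, at 111, 139 and 123 against 139, 134 and 127, and their summed ratio was 0.899 (0.779 to 1.04). Without a filter the log2 fold change was −0.07 (95% interval −0.24 to 0.10, limma-trend adjusted p = 0.491), and with limma-voom it was −0.16 (−0.49 to 0.17, adjusted p = 0.365). The upper end of the limma-voom interval is far below the 3.95 of Batf3 on the same scale.

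Flt3, the receptor gene for FLT3L on progenitors and conventional dendritic cells, spans bases 147330741 to 147400489 of chromosome 5 (reverse strand). It had 5, 3 and 6 reads in GPR35-positive libraries and 1, 2 and 6 reads in GPR35-negative libraries. These are 0.0473, 0.0297 and 0.053 FPKM against 0.00939, 0.0191 and 0.0617 FPKM, at or near the limit of 3 reads, and the groups overlapped. The ratio of summed reads was 1.5 (0.605 to 3.93), so no difference was detectable at this depth (limma-trend without a filter, adjusted p = 0.582). By mean level in GPR35-positive libraries the lineage genes ran, from high to low, Batf3, Cd209a, Zbtb46, Itgae, Xcr1 and Flt3. Cd209a and Zbtb46, at 0.909 ± 0.163 and 0.85 ± 0.131 FPKM (SD, n = 3 each), did not differ beyond their spread.

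Bst1 encodes CD157, a membrane-anchored ADP-ribosyl cyclase of neutrophils, monocytes and bone marrow stroma, and was kept apart from the lineage genes for that reason. It spans bases 43818885 to 43843986 of chromosome 5 (forward strand). It was at 13.2, 12.4 and 13.4 FPKM in the GPR35-positive libraries, against 8.08, 5.91 and 5.76 FPKM in GPR35-negative libraries. It rose 1.97-fold without overlap (log2 fold change 0.90, SE 0.11, limma-trend adjusted p = 7.75e-05), beside a median log2 fold change of 3.09 for the mature neutrophil markers, and that difference in size was not tested. Its exons share 98 bases, 2.95% of their length, with Fbxl5 on the opposite strand. Its paralogue Cd38 also rose, at 10.5 ± 0.606 FPKM in GPR35-positive and 0.507 ± 0.103 FPKM in GPR35-negative libraries (SD, n = 3 each, log2 fold change 2.93, limma-trend adjusted p = 1.42e-09). That p is from the filtered test, which Cd38 entered through its GPR35-positive libraries alone.

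The letters before a RefSeq start are shown for 2 genes that passed the test, Batf3 and Relt, and for Flt3, whose groups overlapped. In the RefSeq promoter table (GRCm38.p6), 7 of the 10 genes had an entry, and Cd83, Itgae and Bst1 were not matched. Each run lies within the 250 bases before the RefSeq start, on the gene's strand, with exons of GENCODE M21 left out. Capitals mark the matches to 4 motifs searched on both strands.
Batf3: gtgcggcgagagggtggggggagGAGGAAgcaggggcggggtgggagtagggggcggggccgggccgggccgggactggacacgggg
Relt: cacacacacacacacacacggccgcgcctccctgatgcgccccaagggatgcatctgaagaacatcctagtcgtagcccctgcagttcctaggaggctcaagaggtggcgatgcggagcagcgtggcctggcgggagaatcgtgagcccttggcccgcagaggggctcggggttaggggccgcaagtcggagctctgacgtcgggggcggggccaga
Flt3: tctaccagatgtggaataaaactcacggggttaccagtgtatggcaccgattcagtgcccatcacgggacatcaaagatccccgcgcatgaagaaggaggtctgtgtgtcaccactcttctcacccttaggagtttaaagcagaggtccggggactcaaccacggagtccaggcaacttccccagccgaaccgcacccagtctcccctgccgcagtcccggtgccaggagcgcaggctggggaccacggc
The Batf3 run is chr1:191098238-191098324 on the forward strand, and the Relt and Flt3 runs are chr7:100863447-100863663 and chr5:147400490-147400739 on the reverse strand. The Batf3 run begins 391 bases inside the gene span, after the first annotated start in GENCODE. Their GC contents were 80.5%, 66.4% and 59.2%. The PU.1 core GAGGAA, found in 23.3% of 32851 windows of 250 bases before a RefSeq start, was matched in Batf3 alone of the 7 genes. The AP-1 motif TGANTCA, found in 6.75% of windows, was matched in the Zbtb46 window alone. That window lies 34788 bases inside the gene, away from its first annotated start, and is not shown. A kappaB motif and an interferon response motif, found in 1.41% and 2.98% of windows, matched none of the 7. A match is a description of letters and says nothing of binding.

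The ratio of Cd83 to each of the other 9 genes was taken within a library, as log2 of FPKM + 0.1. Cd83 alone changed by 4.25 on this scale, so its ratio to any gene that changed little had to separate the groups. The ratios thus describe each gene beside Cd83. They cannot decide whether activation and lineage genes moved alike, since Fscn1 and Relt, also activation genes, parted from Cd83 as well. Against Zbtb46 this log2 ratio was 8.02 ± 0.33 in GPR35-positive and 3.63 ± 0.10 in GPR35-negative libraries (SD, n = 3 each), a difference of 4.39. Differences against Flt3, Itgae, Xcr1 and Cd209a were 4.09, 3.31, 2.97 and 2.42, and against Fscn1, Relt and Bst1 4.10, 3.12 and 3.26, in each case with groups that did not overlap (exact two-sided permutation p = 0.1 for each, the smallest that 3 against 3 libraries can give, and 0.113 adjusted over 9 pairs). The added 0.1 exceeds every Flt3 value and every GPR35-negative Xcr1 value. It shrinks any change of these genes, so their differences lean towards the change of Cd83 itself. The same holds in part for Cd209a and Itgae, whose log2 fold changes were 1.83 and 0.93 with 0.1 added. By limma-voom they were 2.23 and 1.31. On summed reads the Xcr1 ratio was 10.6 (3.86 to 40.7), an interval that includes the 19.2 of Cd83. Against Batf3 the log2 ratio was 5.40 ± 0.25 in GPR35-positive and 4.84 ± 0.48 in GPR35-negative libraries, a difference of 0.56 with overlapping groups (exact permutation p = 0.2). That difference was 1.85 with 1 in place of 0.1 added to FPKM, and the groups then did not overlap (exact permutation p = 0.1). So Batf3 was the member whose ratio to Cd83 differed least between the groups, and whether the groups overlapped for it depended on the value added to a level that is low in GPR35-negative libraries.

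**Figure D3:**
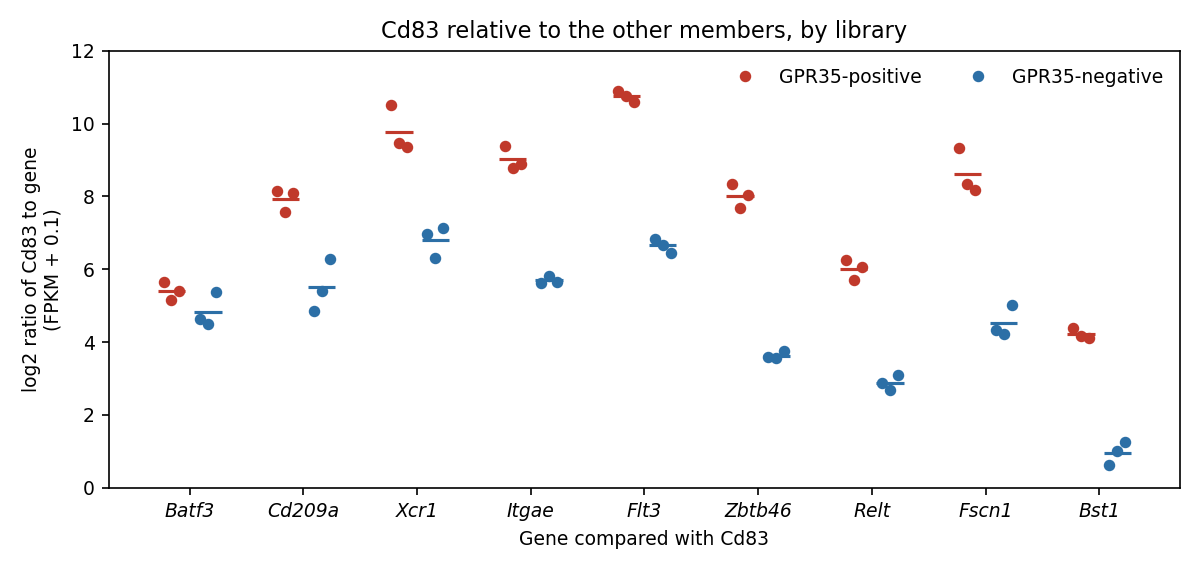
Log2 ratio of Cd83 to each of the other 9 genes, from FPKM + 0.1, in each library; points are libraries and short lines are group means. With 0.1 added, the groups overlap for Batf3, with means of 5.40 and 4.84, and lie apart for the other genes, most for Zbtb46 with 8.02 and 3.63.

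**Figure D4:**
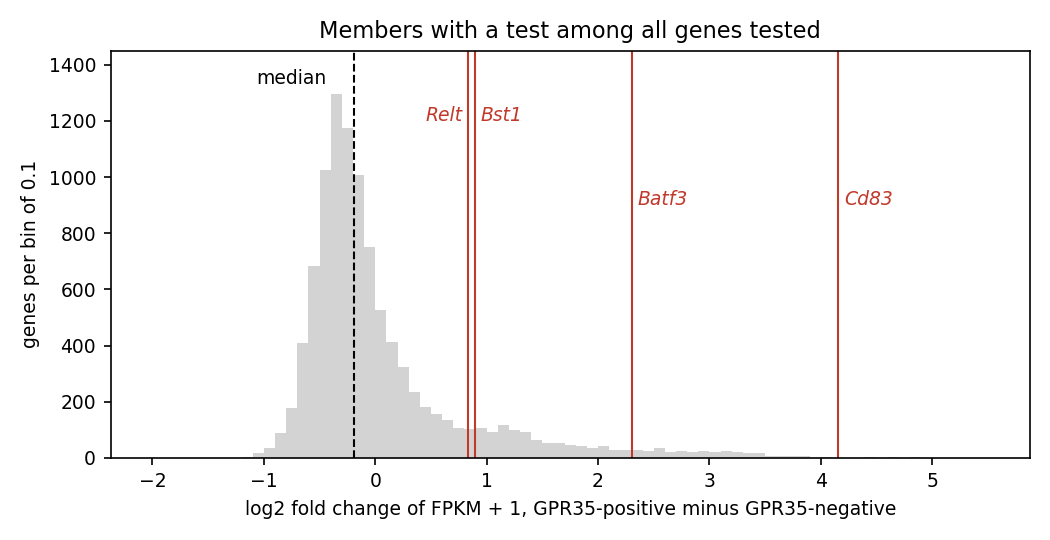
Distribution of log2 fold changes of FPKM + 1 over the 10060 genes tested, in bins of 0.1, with lines at the 4 dendritic cell genes that passed the filter and a dashed line at the median of −0.19. Relt (0.83), Bst1 (0.90), Batf3 (2.31) and Cd83 (4.16) all lie to the right of that median.

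Other genes of the dendritic cell programmes were read from lists that do not include the 10 genes. Some genes passed the 1 FPKM filter through GPR35-positive libraries alone, so the counts and medians of lists are from limma-trend without a filter, over every gene of the list. Beside them stand 17.4% higher, 22.1% lower and a median log2 fold change of −0.00 among all 19818 genes. An adjusted p given for a gene above the filter is from the filtered test. Of 22 genes of mature migratory dendritic cells, 16 rose and 1 fell, and the median change was 0.85 (log2). The gene that fell, Cacnb3, encodes a calcium channel subunit and was at 6.05 ± 0.77 FPKM in GPR35-positive and 9.50 ± 0.813 FPKM in GPR35-negative libraries. Cd40, Cd200, Nudt17, Serpinb6b and Il4i1 had no call without a filter (limma-trend adjusted p = 0.0716, 0.0654, 0.367, 0.974 and 0.916). Whether dendritic cells made the transcripts of this list was not tested. The costimulatory ligand gene Cd80 averaged 17.3 ± 0.59 FPKM in GPR35-positive and 1.45 ± 0.2 FPKM in GPR35-negative libraries. The cytokine gene Il15 averaged 28.7 ± 1.61 and 3.41 ± 0.261 FPKM in the same order, and Marcksl1 138 ± 9.01 and 11.4 ± 1.84 FPKM (SD, n = 3 each). Ccr7, the chemokine receptor gene that takes mature dendritic cells to lymph nodes, was at 20.2 ± 0.472 and 8.92 ± 1.45 FPKM, a log2 fold change of 1.11 (limma-trend adjusted p = 6.97e-06). Cd40, the receptor gene through which T cells license dendritic cells, had 5.09 ± 0.392 FPKM in GPR35-positive and 4.27 ± 0.175 FPKM in GPR35-negative libraries and missed the threshold (limma-trend adjusted p = 0.0521), though it passed with median-of-ratios scaling (0.00984), without GPR35-positive replicate 2 (0.0348) and without GPR35-negative replicate 3 (0.0478). Ccr7 and Cd40 were chosen after their values were seen, as were Cd200, Nudt17, Serpinb6b, Il4i1, Irf8, Clec9a, Wdfy4, Tlr3, Rab43, Clec10a, Siglech, Ccr9, Klk1, Junb, Itgb7, Xcl1, Cdh1, the Cd209 relatives, Lck, Ncr1, Klrb1c, Cd79b, Cd22 and the genes that fell within the dendritic cell lists.

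Genes of the cDC1 programme were mixed. Of 13, 6 rose (Naaa, Ppt1, Nfil3, Clec9a, Wdfy4 and Rab43) and 2 fell (Cadm1 and Tlr3), with a median of 0.23. The adhesion gene Cadm1 fell to 24.7 ± 0.636 FPKM in GPR35-positive libraries, where GPR35-negative libraries had 30.8 ± 2.83 FPKM (SD, n = 3 each). The acid amidase gene Naaa rose to 3.59 ± 0.251 FPKM in the GPR35-positive libraries, against 0.782 ± 0.171 FPKM in GPR35-negative libraries, and the lysosomal thioesterase gene Ppt1 and the transcription factor gene Nfil3 rose by 1.35 and 0.73 on the log2 scale. Irf8, a transcription factor needed for cDC1 that other myeloid cells also make, was at 25.6 ± 3.47 and 21.5 ± 0.228 FPKM in the same order (limma-trend adjusted p = 0.0479), a call of the filtered test. That call ended without GPR35-positive replicate 2 (0.184) or 3 (0.108), without GPR35-negative replicate 1 (0.081), 2 (0.113) or 3 (0.0645), with a pseudocount of 0.1 (0.0506), with a filter of 0.1 FPKM (0.0547) and without a filter (0.0934). Cadm1 missed the threshold under median-of-ratios scaling (limma-trend adjusted p = 0.136). Clec9a, a dead-cell receptor gene that is a close companion of Xcr1 on cDC1, was under the filter at 0.585, 0.558 and 0.531 FPKM in the GPR35-positive libraries, against 0.0528, 0 and 0.0386 FPKM in GPR35-negative libraries. Wdfy4, needed for cross-presentation, averaged 0.868 ± 0.181 and 0.125 ± 0.0214 FPKM in the same order (SD, n = 3 each). Both were called higher without a filter (limma-trend adjusted p = 1.66e-05 and 0.000259). With limma-voom their log2 fold changes were 4.24 and 2.75 (adjusted p = 4.57e-05 and 2.51e-06). Clec9a reached the read minimum of limma-voom through the GPR35-positive group alone. Of 11 genes of the list, limma-voom called 7 higher and 2 lower. Tlr3, the receptor gene for double-stranded RNA in cDC1, went the other way, at 0.295 ± 0.0537 FPKM in GPR35-positive and 0.462 ± 0.0378 FPKM in GPR35-negative libraries (SD, n = 3 each, limma-trend without a filter, adjusted p = 0.021). The call on Tlr3 ended with a pseudocount of 0.1 (0.0681), under median-of-ratios scaling (0.0667), and without GPR35-positive replicate 1 (0.0639) or 2 (0.0614) or GPR35-negative replicate 2 (0.0694) or 3 (0.0522). Rab43, a small GTPase gene, lost its call without GPR35-positive replicate 3 (0.0527) or GPR35-negative replicate 2 (0.0565).

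Of 12 cDC2 genes, 9 rose and 1 fell (median 0.96). Klf4, a transcription factor gene needed by some cDC2, fell to 39.4 ± 1.12 FPKM in GPR35-positive libraries, where GPR35-negative libraries had 51.4 ± 5.3 FPKM (SD, n = 3 each). Several cDC2 genes are also made by macrophages and monocytes, whose summed markers were 17.9-fold higher in GPR35-positive libraries. The part of those cells in the cDC2 values was not tested. The lectin gene Mgl2 averaged 26.6 ± 1.49 FPKM in GPR35-positive and 1.26 ± 0.167 FPKM in GPR35-negative libraries, and Sirpa, the receptor gene for the CD47 signal, 37.7 ± 3.44 and 2.46 ± 0.613 FPKM. The transcription factor gene Zeb2 averaged 7.67 ± 0.16 and 0.712 ± 0.0955 FPKM, and the lectin gene Clec10a 1.60 ± 0.0416 and 0.061 ± 0.0391 FPKM (SD, n = 3 each). Of 11 plasmacytoid dendritic cell genes, 4 rose (Lair1, Irf7, Runx2 and Ccr9) and 3 fell (Bst2, Ly6d and Klk1), with a median of 0.05. Lair1, Irf7 and Runx2 are widely expressed in leukocytes or under interferon, and which cells made their transcripts here was not tested. The chemokine receptor gene Ccr9 was at 0.217 ± 0.0382 FPKM in GPR35-positive and 0.0229 ± 0.0201 FPKM in GPR35-negative libraries (SD, n = 3 each, limma-trend without a filter, adjusted p = 0.000711). Siglech, the lectin gene that defines these cells in mouse, was at 0.0636 ± 0.0234 and 0.0294 ± 0.0199 FPKM in the same order, on 11 and 5 reads in all, with overlapping groups. Bst2 missed the threshold under median-of-ratios scaling (limma-trend adjusted p = 0.451) or without GPR35-negative replicate 2 (0.0553).

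Of 16 genes of dendritic cell development or shared with other myeloid cells, 11 rose and 0 fell (median 0.38). The myeloid transcription factor gene Spi1, which encodes PU.1, averaged 84.8 ± 1.14 FPKM in GPR35-positive and 7.27 ± 0.867 FPKM in GPR35-negative libraries. Itgax, which encodes CD11c, averaged 10.4 ± 1.0 and 0.864 ± 0.119 FPKM in the same order, and Csf2ra, a receptor chain for the growth factor GM-CSF, 44.5 ± 5.5 and 4.41 ± 0.369 FPKM (SD, n = 3 each). Flt3l, the gene of FLT3L, had 21 reads in GPR35-positive and 37 in GPR35-negative libraries. Csf2, the gene of GM-CSF, had 15 and 31. Their ratios of summed reads were 0.547 (0.304 to 0.96) and 0.467 (0.234 to 0.891). The groups overlapped, with no call (limma-trend without a filter, adjusted p = 0.199 and 0.289). Flt3l was called lower without GPR35-negative replicate 3 (limma-trend adjusted p = 0.0104). Both were chosen after their values were seen. Of 16 partners and paralogues of the 10 genes, 5 rose and 0 fell (median 0.09). Batf, the nearest relative of Batf3 and also an AP-1 factor of lymphocytes and myeloid cells, was at 32.6 ± 0.895 and 3.29 ± 0.734 FPKM, and Batf2 at 1.76 ± 0.325 and 1.06 ± 0.158 FPKM. The other genes that rose were Itgb7 and Cd38, given above, and Cd209d, on 5 reads in GPR35-positive libraries and 0 in GPR35-negative libraries. Junb, which encodes a JUN partner of BATF factors, had a log2 fold change of 0.28 and passed with the filter (limma-trend adjusted p = 0.0144) but not without it (0.0618). Its call also ended without GPR35-positive replicate 2 (0.0599) or 3 (0.0575) or GPR35-negative replicate 2 (0.0531). With all 6 libraries, neither list had a gene lower by limma-trend with or without the filter, by limma-voom or at an unadjusted p under 0.05.

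**Figure D5:**
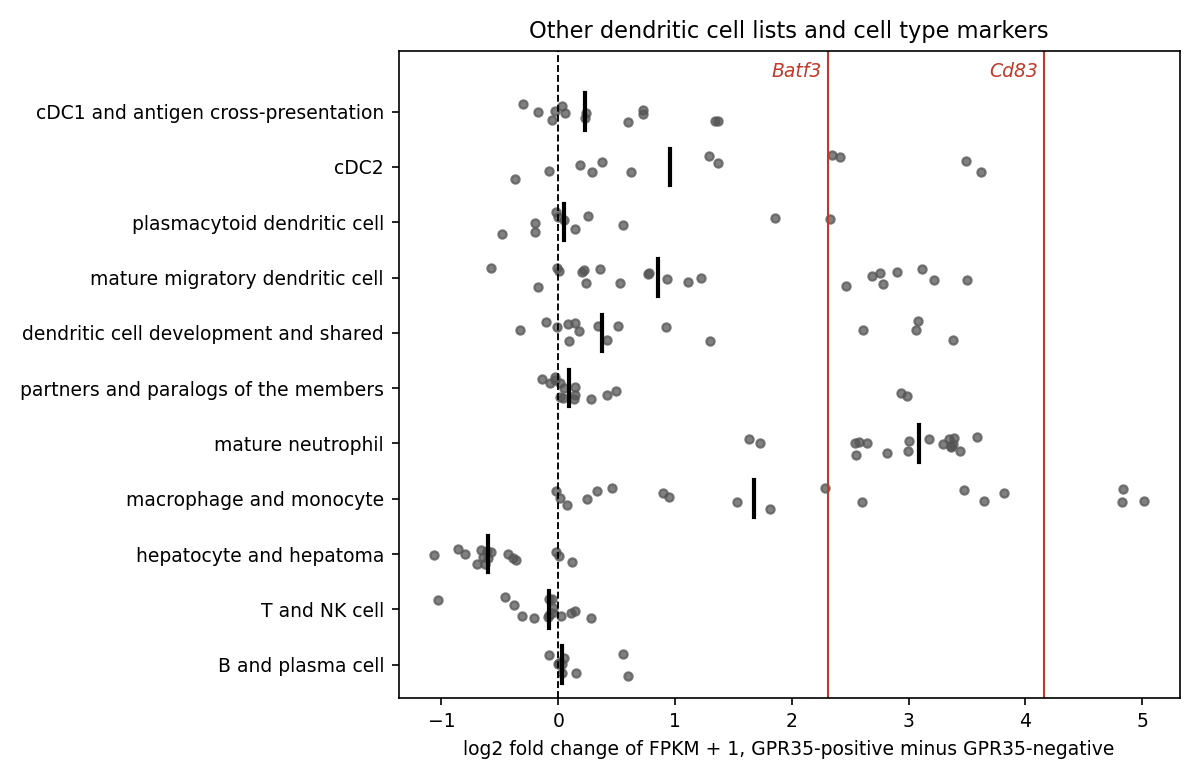
Log2 fold change of FPKM + 1 for every gene of 11 lists, without a filter, with a point for each gene (spread vertically at random), a bar at each list's median, a dashed line at the −0.00 of all genes above 0 and red lines at Batf3 (2.31) and Cd83 (4.16). Mature neutrophil genes centre at 3.09, macrophage and monocyte genes at 1.67, cDC1 genes at 0.23 and hepatocyte genes at −0.61.

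Markers of the other cell types in the same libraries were as follows. All 18 mature neutrophil markers rose, with a median of 3.09, among them the formyl peptide receptor gene Fpr1, Mxd1 and G0s2 by 3.29, 2.81 and 3.38. Of 18 macrophage and monocyte markers, 15 rose and 0 fell, with a median of 1.67, including C1qb, C1qa and Cd68 by 5.02, 4.84 and 3.47. The change of Cd83, 4.16, lay above both medians and below these complement genes. The median of 1.67 includes low genes, whose change the log2(FPKM + 1) scale understates. It was 3.04 over the 12 macrophage and monocyte markers that passed the filter, 6 of them through GPR35-positive libraries alone. In FPKM the sum of these markers was 17.9-fold higher in GPR35-positive libraries, beside 19.2-fold for Cd83. Whether Cd83 rose more than these markers was not tested. Of 16 hepatocyte and hepatoma markers, 13 fell and 0 rose, with a median of −0.61, among them Gpc3, Epcam and Afp by 0.86, 0.70 and 0.60. T and NK cell markers, listed because many tissue T cells carry CD103, summed to 44.0 to 45.1 FPKM in GPR35-positive and 54.9 to 67.9 FPKM in GPR35-negative libraries. Of 15, 5 fell (Gzma, Gzmb, Prf1, Lck and Ncr1) and 1, Klrb1c, rose. Gzma and Gzmb had log2 fold changes of −1.03 and −0.46, and Prf1 and Lck of −0.38 and −0.31. Prf1 and Lck missed the threshold under median-of-ratios scaling (limma-trend adjusted p = 0.0598 and 0.112), and Lck also without GPR35-positive replicate 3 (0.0608). The calls on Ncr1 and Klrb1c ended without most single libraries. For Ncr1 the limma-trend adjusted p was 0.0519 to 0.121 without GPR35-positive replicate 1 or 3 or any GPR35-negative one. For Klrb1c it was 0.0555 to 0.132 without any 1 library. Ncr1 also lost its call with a replicate block (limma-trend adjusted p = 0.0621), and Klrb1c with a filter of 0.1 FPKM (0.0551). The 9 B and plasma cell markers, listed because B cells can make CD83, were all under the filter and summed to 2.1 to 2.18 FPKM in GPR35-positive and 0.828 to 1.0 FPKM in GPR35-negative libraries. Of these, Cd79b and Cd22 rose without a filter. Which cells made Itgae or Cd83 was not tested. No list had a gene at 0 in all 6 libraries.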

How the data were processed

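Titles gave each library's group and number. The authors deposited FPKM values, per the file headers, and all 6 value columns were used. Per the labels' protocols, RNA was isolated with Trizol, and the NEBNext Ultra II kit was used for the libraries. Versions given in the submitters' processing notes, with no roles, are HTSeq 0.9.1, fastp 0.22.0, DESeq 1.38.3 and HISAT2 2.1.0. Those notes name a human build, GRCh38, but the gene IDs are mouse. The annotation and the use of strand are not given in the sources used here. Symbols, positions and exon lengths came from GENCODE M21 (GRCm38), which held 21851 of 21959 IDs. Converted back by length and depth, 97.7% of the nonzero FPKM values lay within 0.02 of an integer number of reads, which gave the reads and totals used here. Between replicates the mean chi-square per gene was 4.82 to 19.7, above sampling noise, and no library was taken as a duplicate.

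The main test was limma-trend (R 4.3.3, limma 3.58.1) on log2(FPKM + 1), two-sided and with no covariate. Genes reaching 1 FPKM in 3 or more libraries were tested, p-values were adjusted over them by Benjamini-Hochberg, and calls were made at 0.05. This scale understates the change of low genes. Genes under the filter were read from the same test over all genes above 0, from limma-voom on recovered reads (at least 10 reads in 3 libraries) and from reads with exact Poisson or binomial 95% intervals, which cover counting error only. Ratios of Cd83 were compared by exact permutation (scipy 1.17.1). Alternatives were a pseudocount of 0.1, other filters, median-of-ratios scaling, limma-voom, a replicate block and leaving out each library. The test was tried on simulated data. The genes, lists and tests were chosen with earlier results of these data known. Genes named are the 10 members, Gpr35, up to 3 of each list with the smallest p, the 5 nearest to Cd83, and those said to be chosen after their values were seen (Irf8, Xcl1 and Itgb7 among them). Tables and plots used Python 3.11.15, numpy 2.4.6, pandas 2.3.3 and matplotlib 3.10.9.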

Additional observations from a re-analysis of the deposited data

How the results depend on the processing

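Cd83, Batf3, Relt and Bst1 stayed higher and past the threshold under every alternative run, with log2 fold changes of 4.06 to 4.29, 2.24 to 3.95, 0.76 to 1.16 and 0.82 to 1.03. Batf3 entered the fits with the 1 FPKM filter through its GPR35-positive libraries alone. The number of dendritic cell genes called higher was 4 in the filtered test and 7 without a filter, since fewer genes were left out, and 6 with limma-voom or a filter of 0.1 FPKM. Over all genes, 2342 were higher and 4575 lower, against 2751 and 3030 under median-of-ratios scaling. That scaling put the share of calls that were higher at 47.6%, beside 33.9% as deposited, and the median log2 fold change at −0.07, beside −0.19. Of cDC1 genes, 4 rose and 1 fell among the 7 in the filtered test, 6 rose and 2 fell among 13 without a filter, 7 rose and 2 fell among 11 with limma-voom, and under median-of-ratios scaling 0 fell. Of 875 values for 76 single genes under alternatives, 826 stayed on the same side of the threshold, called or not. A call was lost for 45 and gained for 4, and 0 changed sign where either fit made a call. Sign changes where neither fit made a call, as for Fscn1 without GPR35-positive replicate 3, are among the 826. Deviations of same-numbered libraries from their group means had correlations across genes of −0.00, 0.40 and −0.06 for numbers 1, 2 and 3. Only number 2 thus deviated together, and libraries of unlike number ran from −0.37 to 0.25. The labels state no pairing, and the numbers were not taken as pairs. With a replicate block, 2365 genes were higher and 4633 lower, and the dendritic cell genes called higher were still 4. For Flt3 and Xcr1, with 6 or fewer reads in each GPR35-negative library, depth limits any statement.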
